A study of Homo sapiens with 16 samples.

Results

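The genes examined were those of glycolysis and of pyruvate handling, a list of 30 genes taken by name, from the glucose transporters to the mitochondrial pyruvate carrier. The list covers 17 steps and was chosen with earlier results of these data known. Its counts beside those of all genes are therefore a description and not a test. The same holds for the other gene lists below. All 30 genes were among the 62703 genes counted, and 28 of them were among the 10566 genes that passed the expression filter and were tested. The remaining genes, SLC2A3 with 3 counts in all and ALDOA listed at 0 in every library, did not pass the filter. Why ALDOA was listed at 0 was not tested.

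Messenger RNA was counted by BRB-seq, in which samples are barcoded at reverse transcription and reads come from 3′ ends of mRNA, in 16 libraries of spheroids of human prostate cancer cells of the established lines LNCaP, 22Rv1 and PC3. All cells were transfected with 25 pmol of an siRNA pool, either against MED12 (siMED12), which encodes part of the kinase module of Mediator, or nontargeting (siCtrl), spent 3 days in 2D culture and then 4 days as spheroids in ultra-low attachment plates, so that RNA was taken 7 days after transfection. LNCaP is androgen-dependent and sensitive to the drug enzalutamide, 22Rv1 responds to androgen but is resistant to the drug, and PC3 does not respond to it. There were 3 siCtrl libraries per line, and there were 3 siMED12 libraries in LNCaP (replicates 1, 2 and 3) but 2 in 22Rv1 and 2 in PC3 (replicates 1 and 3). The study's methods give 3 or more biological replicates as the general rule, without naming these libraries. The labels do not say whether replicates came from separate transfections, so the p-values measure the spread between these libraries, which may be technical.

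The libraries held 479118 to 993807 counts. MED12 itself was covered by 5 to 22 counts per library, and its log2 fold change after siMED12 was -0.50 in LNCaP, -1.28 in 22Rv1 and -0.22 in PC3 (edgeR adjusted p 0.878, 0.175 and 0.987), so that the 3′ tags gave no call on the target. The study itself reports a highly efficient knockdown of MED12 in its spheroids. The 8 mesenchymal-type genes used as markers of PC3, VIM and CAV1 among them, summed to 2591 to 2658 CPM (counts in 1000000, scaled between libraries) in PC3 siCtrl, 157 to 170 CPM in 22Rv1 siCtrl and 74.5 to 157 CPM in LNCaP siCtrl. Of the siMED12 libraries, 22Rv1 replicate 3 held PC3-restricted genes at 4.86% of their PC3 level (at most 0.663% in the other 22Rv1 libraries), and PC3 replicate 3 held LNCaP-restricted genes at 2.50% of their LNCaP level (at most 0.644% in the other PC3 libraries). In the bulk RNA of a spheroid, fewer cells of one kind and less RNA per cell cannot be told apart.

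Glycolysis converts glucose to pyruvate in the cytosol. Glucose enters through SLC2A transporters, hexokinase traps it as a phosphate, phosphofructokinase commits it to breakdown, and the steps from GAPDH to pyruvate kinase yield ATP and NADH. Lactate dehydrogenase then regenerates NAD from pyruvate, and lactate leaves through SLC16A transporters, whereas pyruvate bound for oxidation enters mitochondria through the MPC carrier and is oxidised by pyruvate dehydrogenase, which the PDK kinases switch off. Many of these genes have promoter elements for the hypoxia-inducible factors and for MYC, and normal prostate epithelium is known for secreting citrate rather than oxidising it fully.

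Promoter sequence is shown for LDHA, LDHB, PGK1 and PFKFB3. LDHA and PGK1 were 2 of the most abundant members that fell after siMED12, PFKFB3 was the member that passed the threshold in more than 1 line, and LDHB is the partner isoform of LDHA that did not. Each run is the 250 bases before the transcription start in RefSeq (build GRCh38.p14), 5′ to 3′ on the strand of the gene, and the RefSeq table gives 1 start per gene. Capitals mark ACGTG or GCGTG, the core bound by hypoxia-inducible factors, or their reverse complements, and overlapping matches are merged. CACGTG, the E-box core bound by MYC with MAX, contains ACGTG on both strands and therefore counts as 2 matches.
LDHA promoter (chr11:18394313-18394562, plus strand): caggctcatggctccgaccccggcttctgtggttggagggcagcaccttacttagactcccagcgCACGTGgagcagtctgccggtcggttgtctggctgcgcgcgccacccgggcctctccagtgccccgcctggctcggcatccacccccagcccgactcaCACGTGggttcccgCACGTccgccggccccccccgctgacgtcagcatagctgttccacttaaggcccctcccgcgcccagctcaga
LDHB promoter (chr12:21657843-21658092, minus strand): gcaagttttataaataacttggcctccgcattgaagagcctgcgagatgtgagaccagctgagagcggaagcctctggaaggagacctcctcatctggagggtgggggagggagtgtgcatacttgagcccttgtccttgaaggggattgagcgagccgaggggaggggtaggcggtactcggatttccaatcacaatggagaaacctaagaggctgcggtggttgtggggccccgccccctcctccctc
PGK1 promoter (chrX:78103998-78104247, plus strand): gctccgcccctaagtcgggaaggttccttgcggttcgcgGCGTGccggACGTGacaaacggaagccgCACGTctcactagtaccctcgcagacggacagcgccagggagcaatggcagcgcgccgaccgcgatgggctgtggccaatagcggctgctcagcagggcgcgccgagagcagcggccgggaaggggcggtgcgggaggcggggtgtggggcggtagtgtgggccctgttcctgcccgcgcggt
PFKFB3 promoter (chr10:6144671-6144920, plus strand): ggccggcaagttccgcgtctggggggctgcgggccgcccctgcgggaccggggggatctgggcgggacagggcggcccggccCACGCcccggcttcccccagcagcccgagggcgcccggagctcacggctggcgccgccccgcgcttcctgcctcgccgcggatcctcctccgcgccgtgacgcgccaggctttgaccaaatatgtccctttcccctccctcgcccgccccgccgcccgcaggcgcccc

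The LDHA promoter held 5 matches, 4 of them in its 2 CACGTG elements, the PGK1 promoter held 3, the PFKFB3 promoter 1 and the LDHB promoter 0. An entry was found for 27 of the 30 genes. Of these, 15 (55.6%) held ACGTG or GCGTG within 250 bases, beside 59.1% of 8223 promoters of tested genes and 43.1% of all 27305 promoters. Among the 9 members that passed the threshold in a siMED12 comparison, 8 held a match and SLC2A1 had 0. CACGTG was present in 3 of 27 member promoters (11.1%), those of ALDOC, GAPDH and LDHA, beside 9.5% of promoters of tested genes. A match describes the letters in this window and not the binding of a factor.

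The first comparison concerned the level of each step in unperturbed spheroids of the 3 lines. Because BRB-seq counts 1 tag region per transcript, levels were not divided by transcript length. Comparisons between genes, isoform shares among them, carry a limit, because the part of a gene's reads that was counted was not tested. Against LNCaP, 15 members were lower and 6 higher in 22Rv1 (edgeR adjusted p under 0.05), where 21.2% of all tested genes were lower and 22% higher, and 17 were lower and 7 higher in PC3, where 25.5% of all tested genes were lower and 29.2% higher. Between PC3 and 22Rv1, 11 were lower in PC3 and 9 higher, with 26.1% of all tested genes lower and 28.7% higher. The median log2 difference of the 28 members was -0.75 for 22Rv1 against LNCaP and -0.60 for PC3 against LNCaP, beside 0 and 0.045 over all tested genes. Line and culture cannot be told apart in these differences.

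**Figure D1:**
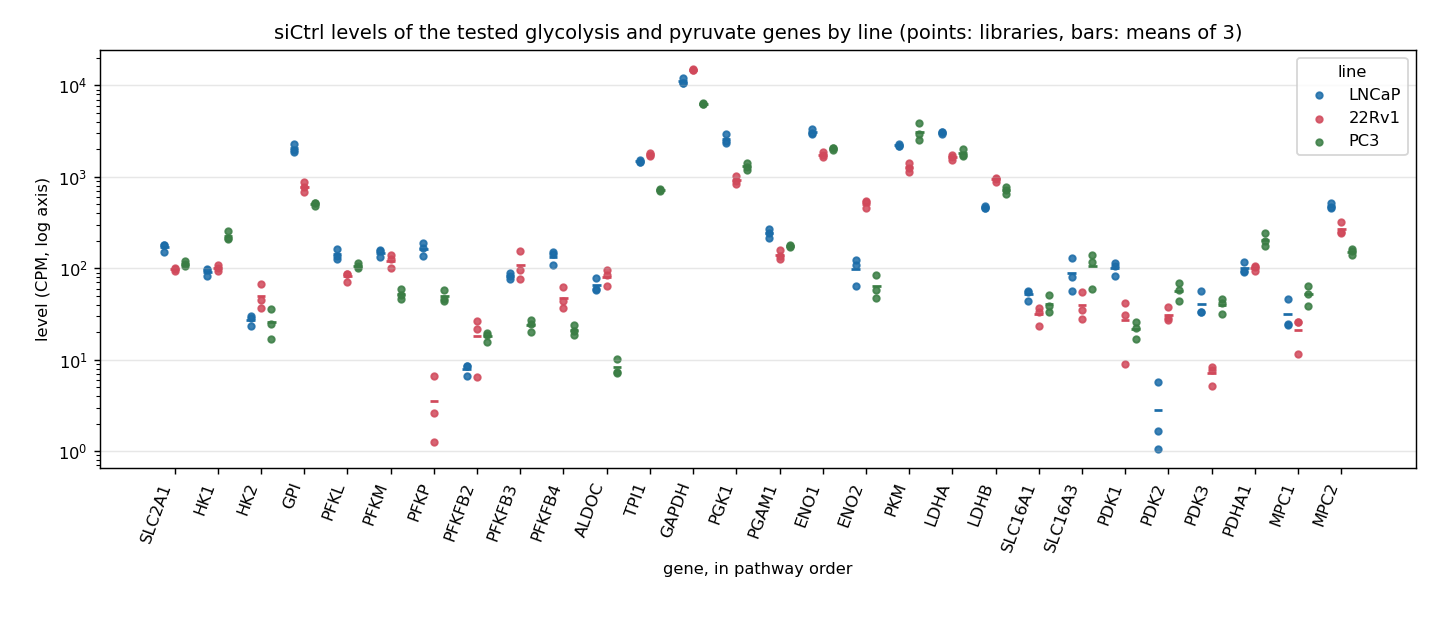
Level of the 28 tested genes in siCtrl spheroids in CPM (log axis), with genes in pathway order, 1 point per library, 3 libraries per line and a bar at their mean. GAPDH is the most abundant in each line, PFKP in 22Rv1 and PDK2 in LNCaP lie near the bottom of the axis, and ALDOC separates PC3 from the other lines.

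GAPDH, which oxidises glyceraldehyde 3-phosphate, was the most abundant member in each line, with 11107 ± 839 CPM in LNCaP siCtrl, 14745 ± 321 CPM in 22Rv1 and 6331 ± 43.3 CPM in PC3 (SD, n = 3 each). All neighbours in the order 22Rv1, LNCaP, PC3 differed (adjusted p 0.00808 for 22Rv1 against LNCaP and 1.84e-06 for PC3 against LNCaP). TPI1, which interconverts the triose phosphates, was at 1472 ± 51 CPM in LNCaP, 1759 ± 70.5 CPM in 22Rv1 and 719 ± 19.1 CPM in PC3, with PC3 lower than both (adjusted p 4.96e-08 and 5.72e-10), whereas 22Rv1 against LNCaP did not pass (adjusted p 0.104). GPI, which isomerises glucose 6-phosphate, was highest in LNCaP at 2048 ± 219 CPM, against 783 ± 102 CPM in 22Rv1 and 505 ± 18.2 CPM in PC3, and each step of that order passed.

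Which isoform served a step differed between the lines. PFKP, the platelet form of phosphofructokinase 1, was at 163 ± 25.1 CPM in LNCaP siCtrl and 49.3 ± 7.47 CPM in PC3 but at 3.52 ± 2.82 CPM in 22Rv1, where it had at most 6.69 CPM in a siCtrl library, near the 3.15 to 6.22 CPM that 3 counts represent. The muscle form PFKM was at 149 ± 14 CPM in LNCaP, 122 ± 19.9 CPM in 22Rv1 and 52 ± 6.54 CPM in PC3. The liver form PFKL was at 143 ± 19.3, 81.6 ± 9.52 and 106 ± 6.1 CPM in the same order of lines. Phosphofructokinase 1 mRNA in 22Rv1 was thus made up of PFKM and PFKL, with PFKP holding 1.65 ± 1.23% of the family counts, against 35.8 ± 3.5% in LNCaP and 23.8 ± 3.03% in PC3.

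ENO2, the neuronal enolase, was highest in 22Rv1, with 508 ± 45.9 CPM in 22Rv1, 99.6 ± 31.1 CPM in LNCaP and 63.5 ± 19.6 CPM in PC3. It was 4.97 times higher in 22Rv1 than in LNCaP (adjusted p 1.31e-10), so that the broadly expressed ENO1 made up 77.4 ± 1.84% of enolase counts in 22Rv1 and 96.9% in both other lines. LDHB, the lactate dehydrogenase subunit that favours pyruvate, was 2.02 times higher in 22Rv1 than in LNCaP and 1.54 times higher in PC3 than in LNCaP, while LDHA, the subunit that favours lactate, was lower in both. Its share of LDHA and LDHB counts was 86.8 ± 0.46% in LNCaP, 63.7 ± 2.5% in 22Rv1 and 71.6 ± 3.34% in PC3.

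Of the hexokinases, HK1 was 2.48 times higher in PC3 than in LNCaP and 2.25 times higher than in 22Rv1, and HK2 was highest in 22Rv1 (49.9 ± 15.3 CPM, against 27.3 ± 3.46 CPM in LNCaP and 25.8 ± 9.72 CPM in PC3, which did not differ from each other, adjusted p 0.801). ALDOC, the brain-type aldolase, was at 65.1 ± 11.6 CPM in LNCaP, 81.2 ± 16.4 CPM in 22Rv1 and 8.3 ± 1.75 CPM in PC3. ALDOA, the aldolase of most tissues, is listed at 0 in every library, and its part in the level of the aldolase step was not tested. Another gene model annotated on the same strand across ALDOA also had 0 counts. SLC2A3 had 3 counts in all, so SLC2A1 was the one glucose transporter of the list with measurable mRNA, at 170 ± 17.7, 97.2 ± 3.33 and 113 ± 6.51 CPM in LNCaP, 22Rv1 and PC3.

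The kinases that switch off pyruvate dehydrogenase also split by line. PDK1 was at 101 ± 16.2 CPM in LNCaP siCtrl, 27.3 ± 16.7 CPM in 22Rv1 and 21.6 ± 4.64 CPM in PC3, and the latter pair did not differ (adjusted p 0.546). PDK2 was at 2.82 ± 2.54 CPM in LNCaP, with 1 library at 5.73 CPM and the others under 2 CPM, 31 ± 5.85 CPM in 22Rv1 and 56.8 ± 12.1 CPM in PC3. PDK3 was at 40.8 ± 13.4 CPM in LNCaP and 39.7 ± 7.48 CPM in PC3, which did not differ (adjusted p 0.742), and at 7.09 ± 1.66 CPM in 22Rv1. PDK4, a kinase gene outside the member list, had the highest mean of these kinases in 22Rv1 siCtrl. It was at 49.2 ± 33.2 CPM there, with libraries from 24.4 to 86.9 CPM. PDK4 was at 0.955 ± 1.65 CPM in LNCaP siCtrl and 2.52 ± 0.397 CPM in PC3 siCtrl. The PDK1 share given below was taken over PDK1, PDK2 and PDK3 and leaves PDK4 out. MPC2, a subunit of the pyruvate carrier, was highest in LNCaP (483 ± 32.6 CPM, against 270 ± 43.1 CPM in 22Rv1 and 152 ± 11.9 CPM in PC3). Its partner MPC1 was highest in PC3 (52 ± 12.8 CPM), with LNCaP (31.7 ± 12.7 CPM) and 22Rv1 (21.1 ± 8.17 CPM) not told apart (adjusted p 0.241).

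The main comparison asked what siMED12 did to the pathway in each line. In LNCaP, genes at the uptake, isomerase, phosphofructokinase 2, phosphoglycerate kinase, enolase and lactate dehydrogenase steps fell together. Of the 28 members, 8 were lower and 0 higher at an edgeR adjusted p under 0.05, which is 28.6%, beside 0.369% of all 10566 tested genes called lower and 0.0473% called higher. DESeq2 called 3 members lower (GPI, PFKFB4 and LDHA) and limma 6. At an unadjusted p under 0.05 in edgeR 15 members were lower, beside 4.11%. The median log2 fold change of the members was -0.42, with 22 of 28 negative, beside -0.004 over all tested genes, of which 51.9% were negative. In 14 members (50%) every siMED12 library lay below every siCtrl library, beside 6.75% of all tested genes, and in 1, PFKFB2, every siMED12 library lay above, beside 5.89%. The edgeR fit behind these counts did not pair libraries by replicate number. With same-numbered libraries paired as a block, 11 members were lower, beside 89 of all tested genes.

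In 22Rv1, 1 member was lower and 0 higher (3.57%), beside 0.842% of all tested genes called lower and 0.994% higher, and 9 were lower at an unadjusted p under 0.05, beside 5.37%. The median was -0.25 with 20 of 28 negative, beside 0.006 and 48.7% over all genes, and 11 members (39.3%) were below siCtrl without overlap, beside 12.9% of all genes. MPC2 was above siCtrl without overlap, beside 13.8%. In PC3, 0 members and 0% of all genes passed by edgeR. DESeq2 and limma called 0 members too, and 1 member, HK1, was lower at an unadjusted p under 0.05, beside 2.36% of all genes. The PC3 median was -0.14 with 22 of 28 negative, beside -0.038 and 55.6% over all genes, and 9 members (32.1%) were below siCtrl without overlap, beside 11.9%, and 0 above, beside 8.8%. SLC2A1, ALDOC, GAPDH, ENO1 and LDHA were below siCtrl without overlap in all 3 lines, 5 of 28 members, beside 25 of all 10566 tested genes (0.237%).

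**Figure D2:**
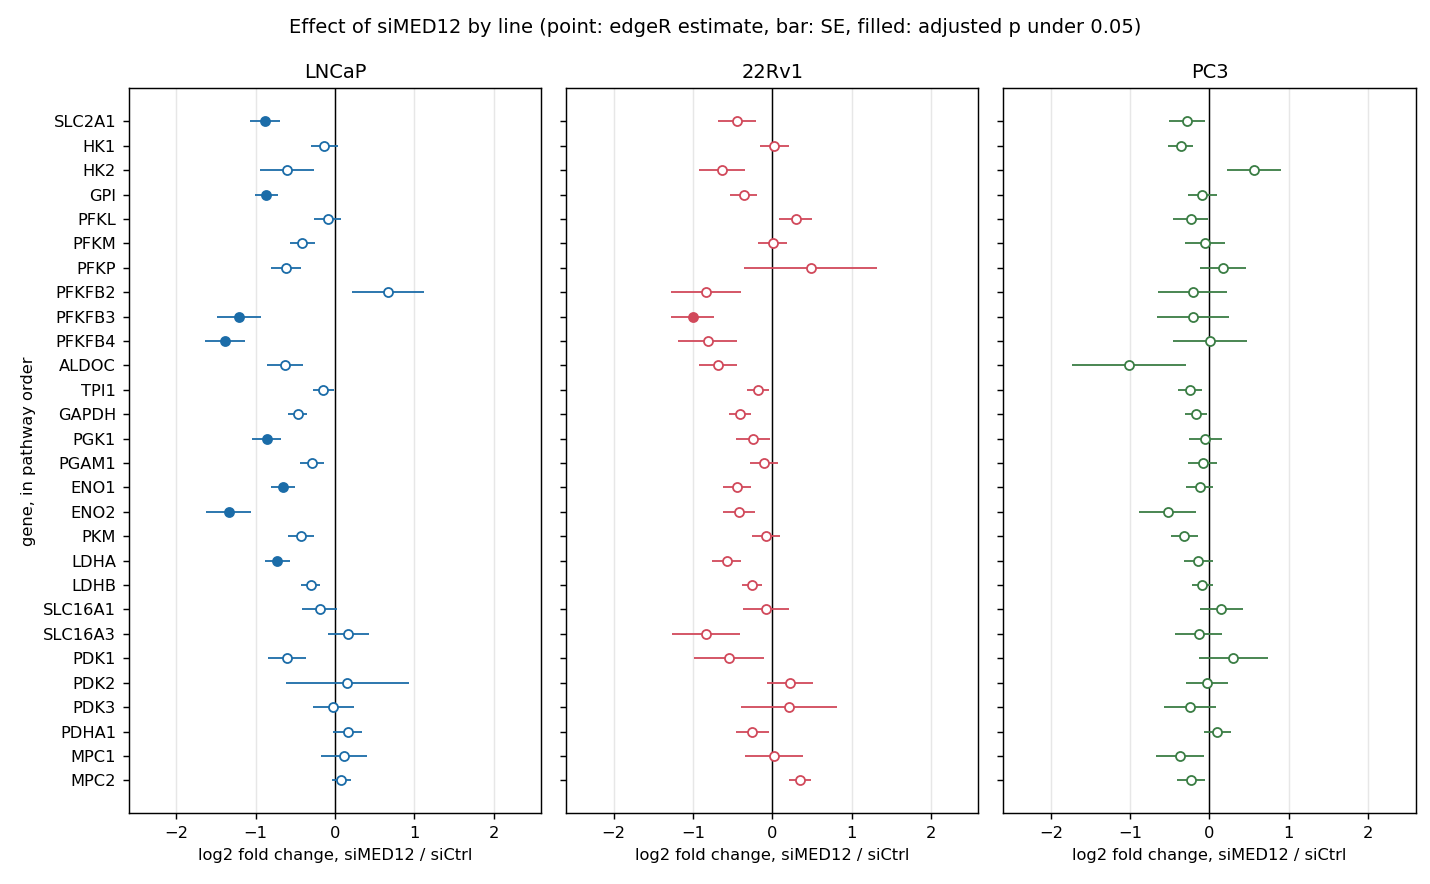
Log2 fold change of siMED12 against siCtrl for the 28 tested genes, in pathway order, in LNCaP, 22Rv1 and PC3, with the edgeR estimate as point and its standard error as bar. Filled points passed the threshold, 8 in LNCaP, 1 in 22Rv1 and 0 in PC3, and 22, 20 and 22 of the 28 estimates are negative.

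The 3 LNCaP siMED12 libraries were not alike. Replicate 2 was the lowest for each of the 9 members called in any comparison. The median log2 difference of the members from the siCtrl mean was -0.84 in replicate 2, -0.18 in replicate 1 and -0.28 in replicate 3, while the median over all genes was 0, 0 and 0.003. The 28 members together summed to 13138 CPM in replicate 2, against 22919 and 22595 CPM in replicates 1 and 3 and 27198 to 30404 CPM in the siCtrl libraries, so replicates 1 and 3 also lay below every siCtrl library. Leaving out siMED12 replicate 2 left 2 members called in LNCaP, GPI (-0.65, edgeR adjusted p 0.0186) and PFKFB4 (adjusted p 0.0399), while the other 6 kept a negative value, from -1.05 for ENO2 (adjusted p 0.262) to -0.38 for ENO1 (adjusted p 0.25). Without siCtrl replicate 1 the count was 4, without siCtrl replicate 2 it was 2, and without siCtrl replicate 3 it was 1, GPI. Over all alternatives, GPI was called in 16 of 16, PFKFB4 in 14 of 15, ENO2 in 12 of 16, PGK1 and LDHA in 11 of 16 each, SLC2A1 in 10 of 16, PFKFB3 in 8 of 16 and ENO1 in 7 of 16.

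At the uptake step SLC2A1, the glucose transporter GLUT1 (ENSG00000117394, GRCh38 chromosome 1, 42925353 to 42958893), had 182, 178 and 149 CPM in the LNCaP siCtrl libraries and 124, 50.7 and 100 CPM in the siMED12 libraries. All siMED12 libraries were below all siCtrl libraries, and SLC2A1 fell by 0.88 on the log2 scale (SE 0.19, edgeR adjusted p 0.0213). The 22Rv1 libraries had 97.6, 100 and 93.7 CPM in siCtrl and 74.2 and 68 CPM in siMED12, and in PC3 120, 107 and 111 CPM and 104 and 76.7 CPM. The groups did not overlap there either, but the log2 fold changes of -0.44 and -0.28 did not pass (adjusted p 0.479 and 0.978).

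Of the hexokinases, which trap glucose, neither passed in a line. HK2 had a log2 value of -0.60 in LNCaP, -0.63 in 22Rv1 and 0.56 in PC3 (adjusted p 0.734, 0.379 and 0.974), and HK1 had -0.14, 0.03 and -0.36. HK2 in PC3 rested on 24.5, 16.8 and 36.1 CPM in siCtrl and 38.2 and 35.3 CPM in siMED12, which overlapped.

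GPI (ENSG00000105220, chromosome 19, 34359480 to 34402413) was the member with the smallest adjusted p in LNCaP. It had 1884, 1963 and 2297 CPM in siCtrl and 1228, 767 and 1383 CPM in siMED12. The groups were far apart, and GPI fell by 0.86 on the log2 scale, a change of -45% (SE 0.15, adjusted p 0.00145). Over the alternatives its log2 value ran from -1.04 to -0.65. GPI in 22Rv1 had 778, 684 and 887 CPM in siCtrl and 692 and 530 CPM in siMED12, and in PC3 515, 516 and 484 CPM and 448 and 504 CPM. Both overlapped (log2 fold change -0.36, adjusted p 0.396, and -0.09, adjusted p 0.987).

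The 2 steps of phosphofructokinase differed. No phosphofructokinase 1 gene passed in a line. PFKP had a log2 fold change of -0.62 and PFKM of -0.41 in LNCaP (adjusted p 0.233 and 0.528), each without overlap, and PFKL had -0.09. With LNCaP libraries of the same number paired in a replicate block, PFKP passed (-0.63, adjusted p 0.0317). Phosphofructokinase 2 makes and removes fructose 2,6-bisphosphate, the strongest activator of phosphofructokinase 1, and PFKFB3 and PFKFB4 are its isoforms known to be induced by hypoxia.

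PFKFB3 (ENSG00000170525, chromosome 10, 6144934 to 6254644) was the member that passed in LNCaP and 22Rv1. It had 87.8, 75.9 and 81.6 CPM in LNCaP siCtrl and 54.6, 21.4 and 31 CPM in siMED12, and fell by 1.21 on the log2 scale (SE 0.28, edgeR adjusted p 0.0338, up to 0.461 over the alternatives). In 22Rv1 it had 75.5, 96.9 and 153 CPM in siCtrl and 40.3 and 70.5 CPM in siMED12, and fell by 1.00 (SE 0.27, adjusted p 0.0492). The groups nearly touched, and the adjusted p was over 0.05 in 11 of 16 alternatives, among them those without siCtrl replicate 2, without siCtrl replicate 3 and without siMED12 replicate 1. In PC3 its level was lower in siCtrl already (24.5, 27.3 and 20.2 CPM) and 18.5 and 24.9 CPM in siMED12, which overlapped (log2 fold change -0.21, adjusted p 0.991).

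PFKFB4 (ENSG00000114268, chromosome 3, 48517684 to 48562015) had 109, 149 and 145 CPM in LNCaP siCtrl and 71.3, 18.7 and 64.4 CPM in siMED12, and fell by 1.39, the most negative log2 value of any member in LNCaP (SE 0.25, edgeR adjusted p 0.00307). In 22Rv1 it had 62.5, 43.5 and 37.2 CPM and 29.7 and 24.4 CPM, without overlap (-0.81, adjusted p 0.356), and in PC3 20.6, 24.2 and 18.8 CPM and 27.7 and 12.4 CPM, with siMED12 libraries on either side of siCtrl (0.01, adjusted p 1). The third isoform, PFKFB2, had 6.63, 8.59 and 8.48 CPM in LNCaP siCtrl and 11.2, 13.3 and 13.8 CPM in siMED12, above without overlap but on few counts (log2 fold change 0.67, adjusted p 0.804). In 22Rv1 PFKFB2 had 6.51, 26.7 and 21.8 CPM in siCtrl and 10.6 and 8.98 CPM in siMED12, which overlapped, and in PC3 19.4, 15.8 and 18.8 CPM and 14.5 and 16.6 CPM.

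At the aldolase and triose phosphate steps no member passed. ALDOC had a log2 value of -0.63 in LNCaP, -0.68 in 22Rv1 and -1.01 in PC3 (adjusted p 0.447, 0.182 and 0.975), without overlap in each line, on 2.07 and 5.28 CPM in PC3 siMED12. TPI1 had -0.15, -0.18 and -0.24 (adjusted p 0.877, 0.688 and 0.974).

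GAPDH (ENSG00000111640, chromosome 12, 6534512 to 6538374) had 10721, 10531 and 12069 CPM in LNCaP siCtrl and 9147, 5639 and 9233 CPM in siMED12. The level in 22Rv1 was 14543, 14576 and 15115 CPM in siCtrl and 11930 and 10356 CPM in siMED12, and in PC3 6375, 6289 and 6327 CPM and 5117 and 6153 CPM. The siMED12 libraries were below siCtrl in all 3 lines, yet no line passed alone (log2 fold change -0.47, -0.40 and -0.17, adjusted p 0.105, 0.16 and 0.978). With the LNCaP libraries paired, GAPDH passed there (-0.50, adjusted p 0.0017). Processed copies of GAPDH took 5014 counts, 4.28% of those of GAPDH itself, and how reads were split between them was not tested.

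PGK1 (ENSG00000102144, chromosome X, 77910739 to 78129295), the first ATP-yielding enzyme of the pathway, had 2321, 2493 and 2956 CPM in LNCaP siCtrl and 1978, 751 and 1554 CPM in siMED12, without overlap, and fell by 0.86 on the log2 scale (SE 0.18, edgeR adjusted p 0.0171). PGK1 in 22Rv1 had 845, 1023 and 902 CPM and 868 and 689 CPM, and in PC3 1424, 1194 and 1285 CPM and 1143 and 1375 CPM. Both pairs of groups overlapped (-0.24 and -0.05, adjusted p 0.718 and 1). PGAM1, a mutase of the next step, had -0.29 in LNCaP, -0.10 in 22Rv1 and -0.09 in PC3 (adjusted p 0.705, 0.883 and 0.99). PGAM2, a mutase gene outside the member list, was at 474 ± 47.1 CPM in 22Rv1 siCtrl, beside 141 ± 16.7 CPM for PGAM1. PGAM2 was at 4.5 ± 0.406 CPM in LNCaP siCtrl and 2.28 ± 3.08 CPM in PC3 siCtrl. PGAM1 thus held the smaller part of these mutase counts in 22Rv1. After siMED12 PGAM2 had -0.08 in 22Rv1 (edgeR adjusted p 0.909). The gene of the PGAM1 retrocopy PGAM4 lies antisense within PGK1 and had 340 counts over all libraries.

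Both enolases, which make phosphoenolpyruvate, fell in LNCaP. ENO1 (ENSG00000074800, chromosome 1, 8861000 to 8879190) had 2969, 3032 and 3327 CPM in siCtrl and 2455, 1145 and 2306 CPM in siMED12 (-0.66 on the log2 scale, SE 0.15, edgeR adjusted p 0.04). ENO1 in 22Rv1 had 1714, 1648 and 1853 CPM and 1358 and 1198 CPM (-0.44, adjusted p 0.253), and in PC3 2060, 2077 and 1942 CPM and 1878 and 1846 CPM (-0.12, adjusted p 0.978). ENO1 did not overlap between treatments in any line, although the change was called in LNCaP alone and a difference between lines did not pass.

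ENO2 (ENSG00000111674, chromosome 12, 6913745 to 6923698) had 64.6, 110 and 124 CPM in LNCaP siCtrl and 47.6, 21.4 and 50.6 CPM in siMED12, and fell by 1.34 on the log2 scale (SE 0.28, edgeR adjusted p 0.0158). In 22Rv1, where its level was highest, it had 455, 538 and 531 CPM and 475 and 278 CPM (-0.42, adjusted p 0.412), and in PC3 58.1, 47.3 and 85.2 CPM and 34.3 and 56 CPM (-0.53, adjusted p 0.975). The groups overlapped in 22Rv1 and PC3. PKM, the pyruvate kinase of these lines, had -0.43, -0.08 and -0.32 (adjusted p 0.421, 0.922 and 0.974). It passed in LNCaP with the libraries paired (-0.48, adjusted p 0.0281).

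LDHA (ENSG00000134333, chromosome 11, 18394560 to 18408425), whose promoter is printed above, had 3055, 2942 and 3107 CPM in LNCaP siCtrl and 2302, 1036 and 2168 CPM in siMED12, and fell by 0.73 on the log2 scale, a change of -39.5% (SE 0.16, edgeR adjusted p 0.0235). In 22Rv1 it had 1655, 1536 and 1751 CPM and 1190 and 1024 CPM (-0.57, adjusted p 0.119), and in PC3 1993, 1730 and 1685 CPM and 1588 and 1684 CPM (-0.14, adjusted p 0.978). The LNCaP and 22Rv1 groups were well apart, while the nearest PC3 libraries differed by about 1 CPM.

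LDHB, the partner subunit, had 476, 461 and 453 CPM in LNCaP siCtrl and 401, 311 and 409 CPM in siMED12. In 22Rv1 it had 980, 948 and 879 CPM and 837 and 730 CPM, and in PC3 649, 767 and 718 CPM and 673 and 664 CPM. It was below siCtrl without overlap in LNCaP and 22Rv1, but its log2 fold changes of -0.31, -0.26 and -0.09 did not pass (adjusted p 0.528, 0.43 and 0.978).

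**Figure D3:**
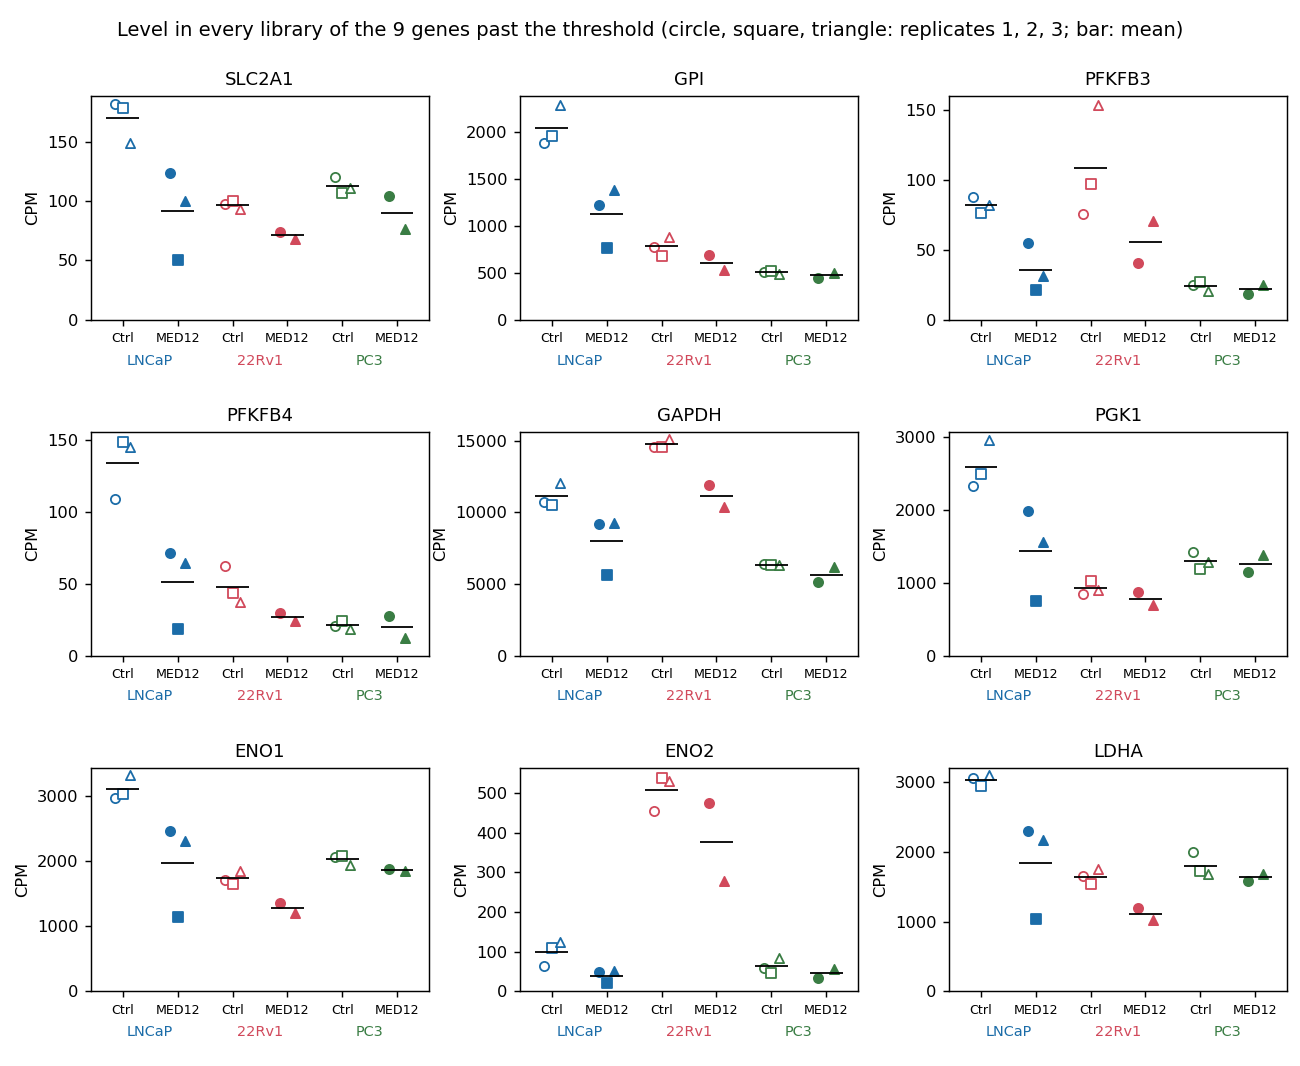
CPM of the 9 members that passed the threshold in a line or on average over the lines, in every library, with siCtrl open and siMED12 filled, replicates 1, 2 and 3 as circle, square and triangle and a bar at the group mean. In LNCaP all siMED12 libraries lie below all siCtrl libraries for each gene, with replicate 2 lowest, and in PC3 the groups overlap for GPI, PFKFB3, PFKFB4, PGK1 and ENO2.

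Beyond lactate dehydrogenase no member passed in any line. Of the lactate transporters, SLC16A3 had a log2 fold change of 0.17 in LNCaP, -0.83 in 22Rv1 and -0.14 in PC3, and SLC16A1 had -0.19, -0.07 and 0.15, with adjusted p from 0.47 to 0.991. PDK1, which is known as a hypoxia-inducible kinase, had -0.61 in LNCaP, -0.55 in 22Rv1 and 0.30 in PC3 (adjusted p 0.528, 0.686 and 0.978), with 82.8, 107 and 113 CPM in LNCaP siCtrl and 89.5, 42.7 and 70.1 CPM in siMED12, which overlapped. PDK2 had 0.16, 0.23 and -0.03 and PDK3 had -0.02, 0.21 and -0.24. PDHA1, the catalytic subunit gene of pyruvate dehydrogenase, had 0.16, -0.25 and 0.10. The carrier subunit MPC2 was the member above siCtrl without overlap in 22Rv1, with 320, 247 and 244 CPM in siCtrl and 367 and 326 CPM in siMED12 (log2 fold change 0.36, adjusted p 0.268), and had 0.08 in LNCaP and -0.23 in PC3, while MPC1 had 0.11, 0.02 and -0.37.

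Averaged over the lines, 4 members were lower and 0 higher (14.3%), beside 0.208% of all tested genes called lower and 0.0568% higher, and 13 were lower at an unadjusted p under 0.05, beside 4.58%. LDHA had a mean log2 effect of -0.48 (SE 0.10, adjusted p 0.0299 in edgeR), GPI of -0.44 (adjusted p 0.0369), ENO2 of -0.76 (adjusted p 0.0369) and GAPDH of -0.35 (adjusted p 0.0377). SLC2A1, ENO1 and PFKFB3 had mean values of -0.54, -0.41 and -0.81 with an adjusted p of 0.0643, 0.0637 and 0.0732. With the replicate numbers as a block 9 members passed on average, the 4 above and SLC2A1 (adjusted p 0.0099), ENO1 (0.00104), PFKFB3 (0.00823), PGK1 (0.0174) and PKM (0.0226). The 22Rv1 and PC3 effects each rested on replicates 1 and 3 alone in that block fit, among them the libraries that carried another line's genes. Among all members 24 of 28 mean values were negative without the block, beside 52.3% of all genes. The count was 0 without LNCaP siCtrl replicate 2 or 3 or without either PC3 siMED12 library, 1 without 22Rv1 siMED12 replicate 3 or PC3 siCtrl replicate 3, 2 without LNCaP siCtrl replicate 1, 22Rv1 siCtrl replicate 2 or 3 or PC3 siCtrl replicate 2, and 8 without LNCaP siMED12 replicate 1. Leaving out the siMED12 libraries that carried another line's genes, replicate 3 of 22Rv1 and of PC3 together, also gave 0.

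Whether the lines responded differently was tested directly. For 0 of the 28 members did the siMED12 effect differ between lines at an adjusted p under 0.05 in edgeR, beside 0.189%, 0.0284% and 0.0946% of all tested genes for 22Rv1 against LNCaP, PC3 against LNCaP and PC3 against 22Rv1. At an unadjusted p under 0.05 there were 4, 7 and 2 members, beside 8.28%, 5.02% and 9.16% of all genes. The smallest were GPI, whose log2 effect was 0.77 less negative in PC3 than in LNCaP (SE 0.23, unadjusted p 0.00195, adjusted p 0.636), ENO2 between 22Rv1 and LNCaP (0.92, adjusted p 0.448) and HK2 between PC3 and 22Rv1 (1.20, adjusted p 0.385). A larger response in LNCaP than in PC3 was therefore not established for any member.

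The balance between isoforms was examined as the share of a family's counts held by 1 isoform, with an exact two-sided permutation test of the siMED12 difference within lines (2000 arrangements) adjusted over 8 families. No share passed. LDHA showed the smallest p. Its share of LDHA and LDHB counts was 86.5, 86.4 and 87.3% in LNCaP siCtrl and 85.2, 76.9 and 84.1% in siMED12, 62.8, 61.8 and 66.6% in 22Rv1 siCtrl and 58.7 and 58.4% in siMED12, and 75.4, 69.3 and 70.1% in PC3 siCtrl and 70.2 and 71.7% in siMED12. It was below siCtrl in each siMED12 library of LNCaP and 22Rv1 and overlapped in PC3, with a mean difference of -3.51 percentage points (permutation p 0.0255, adjusted p 0.204). For the other families the adjusted p was 0.772 or more, and the mean differences were -2.47 points for HK2, -0.0895 for PFKP, -0.704 for PFKFB3, 0.686 for ENO1, -2.72 for SLC16A3, -5.42 for PDK1 and -0.856 for MPC1. PFKFB3 thus held 36.8 ± 5.59% of its family in LNCaP siCtrl and 36.1 ± 6.63% in siMED12 (SD, n = 3 each), with PFKFB4 called lower beside it.

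**Figure D4:**
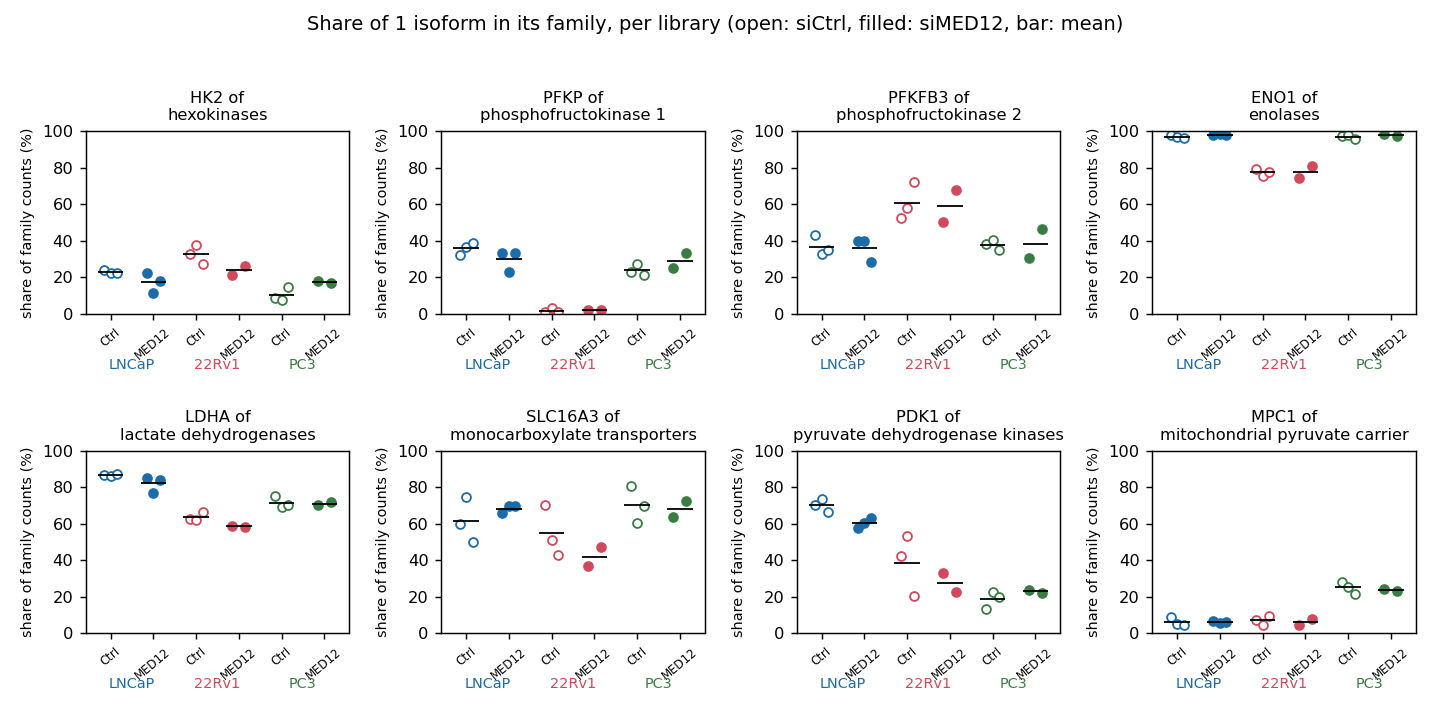
Share, in percent, of the counts of a family's listed members held by the isoform named above each panel, per library. Open points are siCtrl, filled points are siMED12, and a bar marks the group mean. The LDHA share lies below siCtrl in the siMED12 libraries of LNCaP and 22Rv1, PFKP holds 1.65% of its family in 22Rv1 siCtrl, and differences between lines exceed those between treatments in most panels.

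Other genes of carbohydrate metabolism were counted beside the members. Of 28 further glycolysis genes 13 were tested, of 17 further pyruvate genes 14, of 8 gluconeogenesis genes 4, and of the 8 pentose phosphate genes all 8, and edgeR called 0 in any line or on average. Of these 39 tested genes, at an unadjusted p under 0.05, 1 was lower and 2 higher in LNCaP (beside 4.11% and 3.24% of all tested genes), 2 lower and 1 higher in 22Rv1 (5.37% and 6.37%), 1 lower and 0 higher in PC3 (2.36% and 2.63%), and 2 lower and 1 higher on average (4.58% and 3.94%). Calls by the other tools were not counted for these lists. Their median log2 fold changes in LNCaP were 0.29, -0.16, 0.09 and -0.03, with 5, 11, 2 and 5 negative values.

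Genes outside glycolysis known to be induced by hypoxia were counted too. Their list was also chosen with earlier results of these data known, so its counts beside those of all genes are a description and not a test. Of 25 such genes 20 were tested, and 6 were lower in LNCaP, 4 in 22Rv1, 0 in PC3 and 3 on average, with 0 higher, beside 0.369%, 0.842%, 0% and 0.208% of all tested genes. Their medians were -0.80, -0.57 and -0.10 in the 3 lines, beside -0.004, 0.006 and -0.038 over all tested genes. The genes with the smallest p in LNCaP were BHLHE40, a transcriptional repressor (-2.62, edgeR adjusted p 2.43e-07), HILPDA, a lipid droplet protein (-1.19), DDIT4, an inhibitor of mTORC1 (-1.21), and BNIP3, a mitophagy receptor (-0.95). In 22Rv1 they were CA12, a carbonic anhydrase (-1.37), DDIT4 (-1.82), ANGPTL4, a lipoprotein lipase inhibitor (-1.26), and BNIP3L, another mitophagy receptor (-0.92). On average they were BNIP3L (-0.61), DDIT4 (-0.95) and BNIP3 (-0.67). Of 12 transcriptional regulators of the pathway 10 were tested, and MYC was the one called. It had -0.65 in LNCaP and -0.88 in 22Rv1 (edgeR adjusted p 0.0151 and 0.000897). In PC3 MYC had -0.17 and was not called (edgeR adjusted p 0.978). HIF1A had a value of 0.14 in LNCaP, -0.25 in 22Rv1 and -0.03 in PC3 (adjusted p 0.957, 0.764 and 1), which are mRNA values of a factor controlled mainly at the protein level. The part of these genes in the change of the members was not tested.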

How the data were processed

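RNA was measured in 16 libraries from spheroids of 3 cell lines. The authors used STARsolo with Gencode 43 (GRCh38.p13), as the study's methods and the submitters' processing notes say. Collapsing of molecular identifiers is not given in the sources used here. The deposited table holds raw counts per gene. The log2 CPM table deposited by the authors was recomputed from the counts with edgeR (prior count 2) to within 5e-14. It served as an alternative.

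Counts were tested in R 4.3.3 with the two-sided quasi-likelihood test of edgeR 4.0.16 (legacy setting off), after the edgeR filter (minimum count 10, minimum total 15) and TMM scaling, in 1 fit of 6 group means, with Benjamini-Hochberg adjustment over 10566 genes and a threshold of 0.05. The standard error (SE) was the log2 fold change divided by the square root of F. Levels are TMM-scaled CPM with SD between libraries. A count of 0 allows up to 3 counts, 3.15 to 6.22 CPM, for counting error only. Isoform shares were tested by exact permutation. The tests were checked on simulated data.

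The 30 members and all lists were chosen with earlier results of these data known. A member has its value per library printed where it passed the threshold in a siMED12 contrast or is the partner isoform of one that did, and the other members were given by step. HK2, PDK1 and MPC2 were added to these after their values were seen. Of each other list at most 4 called genes by smallest p were named per comparison. HIF1A, PDK4 and PGAM2 were added after their values were seen. A second list of line markers is not reported here.

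Replicates within a group were compared in 14 pairs, and their variance was 1.60 to 3.43 times that of 2 samplings of one pool, so none was a copy. Over 6720 genes the deviations from group means of same-numbered siCtrl and siMED12 libraries correlated with 0.177, 0.132 and 0.135 in LNCaP. The numbers were therefore taken to pair these libraries. In 22Rv1 and PC3, with 2 pairs each that are not independent, the correlations were 0.190, 0.253, 0.117 and 0.079. Coordinates are from Gencode 44 on GRCh38 by gene identifier, and promoters from RefSeq (GRCh38.p14). Alternatives were RLE scaling, DESeq2 1.42.0, limma 3.58.1, other filters, the replicate block, the libraries of 1 line alone, subtraction of carried-over counts, and each library left out. The legacy test, scaling by totals alone and leaving out both libraries with carried-over counts were added after seeing the data.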

Additional observations from a re-analysis of the deposited data

How the results depend on the processing

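In LNCaP the count of all genes called, 44, was 22 with DESeq2, 29 with limma, 95 with no filter beyond 1 count and 28 with genes of at least 10 counts in every library, and 8 members called became 3 with DESeq2 (GPI, PFKFB4 and LDHA) and 4 with the LNCaP libraries alone. In 22Rv1 194 genes became 72 with DESeq2, 75 with genes of at least 10 counts and 111 without 22Rv1 and PC3 siMED12 replicate 3, and the 1 member called, PFKFB3, became 0 with RLE, DESeq2, limma, genes of at least 10 counts, carried-over counts subtracted, the legacy test and library totals, and 3 with no filter beyond 1 count. In PC3 0 genes became 1 with limma and 9 with no filter beyond 1 count. For the mean 28 genes became 18 with DESeq2, 72 with no filter beyond 1 count, 43 with genes of at least 10 counts and 7 without both replicate 3 libraries, and 4 members became 2 with DESeq2, limma and library totals, 10 with no filter beyond 1 count and 0 without both libraries. The libraries of 1 line alone give no mean. PFKFB4 in PC3 was -0.014 with DESeq2, -0.15 with limma and -0.043 with carried-over counts subtracted, PGK1 and PDK2 in PC3 were 0.023 and 0.049 with library totals, PDK2 in PC3 was 0.006 with the PC3 libraries alone, PDHA1 in PC3 and MPC1 in 22Rv1 were -0.178 and -0.357 without both replicate 3 libraries, HK1 and MPC1 in 22Rv1 were -0.012 and -0.027 with carried-over counts subtracted, PDK3 in LNCaP was 0.018 with DESeq2, 0.003 with limma and 0.024 with library totals, and the PFKP share difference was 0.121 as a log2 ratio with 1 CPM added. The cause of these changes was not tested.

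The replicate block gave 117 genes in LNCaP, 312 in 22Rv1, 20 in PC3 and 99 for the mean, and for the differences of effects 71 (22Rv1 against LNCaP), 13 (PC3 against LNCaP) and 73 (PC3 against 22Rv1), from 20, 3 and 10 without it. Called members became 11 in LNCaP, 3 in 22Rv1 (PFKFB3, LDHA and GAPDH) and 9 for the mean, and MPC1 in 22Rv1 was -0.213. The siCtrl replicate 2 libraries of 22Rv1 and PC3 had no partner in this fit, so these effects rested on 2 pairs per line. In 7 of 7 pairs the siMED12 library correlated best with the siCtrl library of its own number. These pairs are not independent, because deviations were taken from group means and those of the 2 siMED12 libraries of 22Rv1, or of PC3, mirror each other.

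With 1 library left out at a time, genes called ran from 12 to 55 in LNCaP, 74 to 157 in 22Rv1, 0 to 3 in PC3 and 8 to 37 for the mean, and 1 to 17, 1 to 5 and 3 to 31 for the differences in the order above. Members called ran from 1 to 8, 0 to 1, 0 to 0 and 0 to 8. The sign changed for 6 of 28 members in LNCaP, 6 in 22Rv1, 8 in PC3 and 7 for the mean, of which 0 were called. Among these the log2 values ran from -0.205 to 0.04 (PFKL), -0.306 to 0.047 (TPI1), -0.113 to 0.566 (SLC16A3), -0.48 to 1.136 (PDK2), -0.331 to 0.336 (PDK3) and -0.071 to 0.453 (MPC1) in LNCaP, -0.218 to 0.635 (PFKL), -0.154 to 0.003 (PKM), -0.123 to 0.142 (HK1), -0.294 to 0.133 (SLC16A1) and -0.359 to 0.354 (MPC1) in 22Rv1, -0.393 to 0.031 (PFKFB3), -0.779 to 0.368 (PFKFB4), -0.183 to 0.08 (PGK1), -0.454 to 0.14 (SLC16A3), -0.202 to 0.133 (PDK2) and -0.167 to 0.364 (PDHA1) in PC3, and for shares in percentage points -1.39 to 1.22 (PFKP), -3.69 to 2.28 (PFKFB3) and -0.491 to 1.86 (ENO1). Depth limits PFKP and PDK3 in 22Rv1, PDK2 in LNCaP and ALDOC in PC3, whose levels lie near that of 3 counts.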
